A study of Mus musculus with 2 samples.

Results

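The retinal pigment epithelium (RPE) cells described here were those of medium library size that carried a mature RPE profile. They were selected on measured values in the count matrices of both mice, with at least 500 genes per cell, at most 5% of the unique molecular identifiers (UMIs) from mitochondrial genes, at least 5% of UMIs from Ttr, at least 1 UMI of Rpe65 and a total of 6000 to 12000 UMIs. A UMI tags a captured transcript before amplification, so each value counts molecules, and at the 3′ end a transcript counts once whatever its length. The selection kept 1174 of the 2844 cells of mouse R1 (41.3%) and 832 of the 2994 cells of mouse R2 (27.8%), together 2006 of 5838. These totals are those of the deposited counts. For R2 the paper's methods give a different number of cells, and which is right is not known. The study held a single group without treatment, male C57BL/6J mice sampled at postnatal day 36 (4 to 5 weeks in the sample labels). For each mouse, the 2 eyes were combined after trypsin had released the epithelial sheets, and live cells were sorted before droplet capture on the 10x Genomics platform. With 2 mice and no second condition, each value is given for both mice, and a test was possible only between cells of different depth within the mice.

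The RPE is the single layer of pigmented cells between the photoreceptors and the choroid. It returns 11-cis retinal to the photoreceptors through the visual cycle, takes up their shed outer segment tips, moves ions, lactate and water toward the choroid, and secretes proteins on both faces. Melanin made in its pigment granules absorbs stray light.

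The window of 6000 to 12000 UMIs did nearly all of the choosing. Of the cells in the window that met the limits on genes and mitochondrial UMIs, 1174 of 1175 in R1 and 832 of 834 in R2 were members. The cells left out fell far below the Ttr limit, at 0.588% of UMIs in R1 and at 0.407% and 0.432% in R2, whereas the lowest member held 5.18% in R1 and 6.38% in R2. At the lower edge of the window, the nearest mature cells had 5995 UMIs outside and 6013 inside in R1, and 5993 and 6005 in R2. At the upper edge they had 11984 inside and 12004 outside in R1, and 11998 and 12011 in R2. The members had a median of 8928 UMIs and 2190 genes in R1, and of 8783 UMIs and 1931 genes in R2. Their counts summed to 10447312 and 7344545 UMIs. The mice shared 12 cell barcodes, 2 of them among members. Summed counts of the mice differed by more than sampling noise (over 11001 genes, a chi-square of 7.77 for each degree of freedom), and the mice were treated as separate replicates.

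The RPE label was checked on genes that the selection had not used. Rgr, an opsin of the visual cycle, and Rlbp1, which carries retinaldehyde, were found in every member of both mice (100% of cells, exact Clopper-Pearson 95% interval from 99.7% in R1 and from 99.6% in R2). Lrat, the enzyme that esterifies retinol, was found in 99.8% and 99.6% of members and the transcription factor Otx2 in 93.3% and 90.3%. Best1, a chloride channel of the RPE, was in 4 of 1174 and 1 of 832 members (0.341% and 0.120%), and whether transcripts of this gene were lost in the deposited counting was not tested. For background, the few cells with at least 3 markers of another cell type and Ttr under the limit were used, 5 in R1 and 3 in R2. Rgr was found in 5 of 5 and 1 of 3 of them, Rlbp1 in 2 of 5 and 0 of 3, and Rpe65 in none. There Rgr averaged 18.9 UMIs per 10000 in R1 and 2.41 in R2 at median depths of 2851 and 2968 UMIs, against 192 and 213 in the members. Intervals cover counting error only.

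Most, but not all, markers of other cell types were scarce in the members. The rod factor Nrl was listed at 0 in both mice. At least 3 markers of a microglial, fibroblast, endothelial, pericyte or red blood cell list were found in 12 members of R1 and 9 of R2. Of these, 10 and 9 cells met the pericyte list, in which Acta2 was at 2.25 and 2.19 UMIs per 10000 and Rgs5 at 0, and 1 cell of R1 met the microglial list. Some markers of other types were widespread, among them Apoe (181 and 160 UMIs per 10000) and Glul (11.6 and 10.7) of the Muller glia list, Rom1 of the rod list (4.20 and 4.72) and Csf1r of the microglial list (1.53 and 1.27). Acta2 was found in 74.2% and 70.2% of members, and Mlana and Sox10 of the choroidal melanocyte list in 64.7% and 55.9% and in 34.8% and 31.9%. The Muller glia list also holds Rlbp1, found in every member, and Vim (0.577 and 0.746). The other genes of the rod and microglial lists were each below 0.1, and Aqp4, Cnga1 and Cx3cr1 were at 0 in both mice.

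The transcriptome of the members was steep. Ttr, the carrier of thyroxine and of the retinol-binding protein, made up 11.4% of UMIs in R1 and 13.0% in R2, although its level in part reflects the selection. Together with Ptgds, which makes prostaglandin D2, and Cst3, a secreted inhibitor of cysteine proteases, it held 21.5% and 23.5%. The 10 leading genes held 31.5% and 33.4%, the 25 leading genes 38.4% and 40.4%, and the 100 leading genes 49.5% and 51.3%. A total of 14538 genes were detected in R1 and 13685 in R2, and 1214 genes reached a mean of at least 1 UMI per 10000 in both mice. The rank order was shared by the mice, with 23 of the 25 and 92 of the 100 leading genes in common and r = 0.989 across the 1214 genes on a log10 scale, a description over genes that are not independent replicates.

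**Figure D1:**
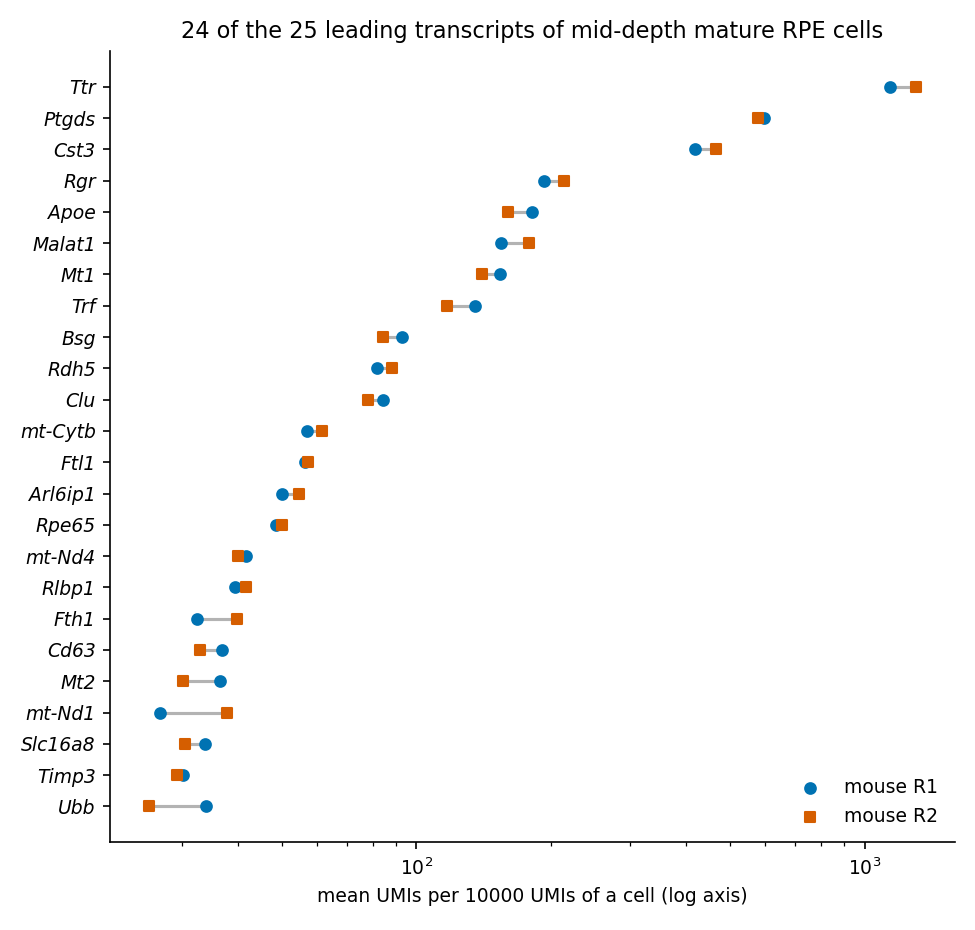
Mean UMIs per 10000 UMIs (horizontal axis, log scale) of 24 of the 25 leading genes of mid-depth mature RPE cells (vertical axis), with a blue circle for mouse R1, an orange square for R2 and a grey line joining them. Ttr lies above 1000 in both mice, and the genes from the third rank on lie below 500.

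Genes of the visual cycle were among the most abundant transcripts. Rgr followed Ttr, Ptgds and Cst3 at 192 UMIs per 10000 in R1 and 213 in R2. Rdh5, which oxidizes 11-cis retinol, was at 81.7 and 88.1. Further down the rank came the isomerase Rpe65 (48.5 and 50.1, part of the selection), Rlbp1 (39.3 and 41.6), the dehydrogenase Rdh10 (23.9 and 24.1), Lrat (13.7 and 14.8) and the retinol receptor Stra6 (8.20 and 7.68). Of the 14 genes of this list, 12 reached 1 UMI per 10000 in both mice. The other 2 were Rdh11 (0.442 and 0.505) and Rbp4 (0.0925 and 0.0916).

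Iron and metal genes included several abundant transcripts. The metallothioneins Mt1, Mt2 and Mt3, small proteins that bind zinc and copper, were at 153, 36.4 and 27.7 UMIs per 10000 in R1, and at 140, 30.1 and 28.1 in R2. Transferrin (Trf), which carries iron, was at 135 and 117, and the ferritin chains Ftl1 and Fth1, which store it, at 56.3 and 57.4 and at 32.4 and 39.9. Genes for iron export and its control were near 0, with the exporter Slc40a1 found in 0.341% of members of R1 and in none of R2, and Hamp at 0 in both mice.

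Lactate transport was led by a pair of partners. Bsg, the chaperone of monocarboxylate transporters, was at 92.6 and 84.3 UMIs per 10000, and Slc16a8, the transporter of the basal face, at 33.8 and 30.5. The apical transporter Slc16a1 was lower, at 6.63 and 7.12, the glucose transporter Slc2a1 was at 9.37 and 9.36, and Slc16a3 was listed at 0. For lactate dehydrogenase, the Ldhb subunit exceeded the Ldha subunit, at 10.5 and 10.3 against 1.01 and 1.02. Gapdh, an abundant transcript in most cells, had 3 UMIs in R1 and 1 in R2. Genes with near-identical copies elsewhere in the genome, such as Gapdh and many ribosomal protein genes, can lose reads in counting, so their levels here are uncertain.

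Among secreted proteins, Cst3 (418 and 465 UMIs per 10000), the chaperone clusterin (Clu, 84.2 and 77.8), the metalloproteinase inhibitor Timp3 (30.1 and 29.2) and Enpp2, which makes lysophosphatidic acid (26.03 and 19.7), stood far above the growth factor Vegfa (1.77 and 1.71). Serpinf1, which encodes pigment epithelium-derived factor, was at 0.00334 UMIs per 10000 in R1 and had no UMI in R2, and a loss in the deposited counting was not tested here either. Of 10 complement genes, C3, Cfb and Cd55 were at 0 in both mice.

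Genes for uptake of outer segments and ion transport covered a wide range of levels. The lysosomal protease Ctsd led the phagocytosis list at 28.0 and 28.1 UMIs per 10000, whereas the receptor Mertk was at 0.521 and 0.535. The potassium channel Kcnj13 (12.4 and 11.2) and the sodium pump subunit Atp1b1 (12.7 and 10.7) led the ion transport list. For pigment synthesis, Dct (9.76 and 6.74) led the melanogenesis list, with Tyr at 2.48 and 1.92 and Slc24a5 at 2.39 and 1.97, and 5 of its 13 genes reached 1 in both mice.

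The remaining lists differed in their number of abundant members. In both mice, 8 of 12 antioxidant genes and 2 of 14 clock genes reached 1 UMI per 10000. The antioxidant genes Gpx4 (24.1 and 21.8 UMIs per 10000) and Prdx1 (15.5 and 13.9) led their list, and Cryab (12.5 and 12.1) was the only one of 12 crystallin list genes to reach 1. The clock gene Dbp was at 5.29 and 5.60 and Arntl at 0.0449 and 0.0255. B2m of the interferon and histocompatibility list was at 9.49 and 10.3, and Sox9 and Six3 of the eye transcription factors were at 1.37 and 1.36 and at 1.25 and 1.19. Among cell cycle genes, Mki67 and Top2a had no UMI in any member, whereas Ccnd1 was at 2.15 and 2.45 and Cdk1 at 0.356 and 0.325.

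The mice differed little in single genes. Of 1340 genes with at least 1 UMI per 10000 in one of the mice, 2 exceeded R2 by 2-fold or more in R1 (0.149%), and 4 exceeded R1 by as much in R2 (0.299%). Bhlhe41 (0.265 in R1 and 1.005 in R2), Jun (0.339 and 1.08) and Rps28 (2.00 and 0.925) reached that limit only in the mouse where they were higher. The limit thus favoured their being counted. With 1 mouse on each side these ratios have no replicate check, and the intervals below cover counting error only. Bhlhe41, a repressor of the clock and of hypoxia-responsive genes (chromosome 6, 145858243 to 145865558, GRCm38), was 3.65-fold higher in R2 (interval 3.16 to 4.22, 685 UMIs against 267). This ratio differed by depth class, since the summed level of Bhlhe41 in low-, mid- and high-depth cells was 0.553, 0.256 and 0.218 in R1 and 1.83, 0.933 and 0.2299 in R2. Jun, an immediate early factor, was 3.19-fold higher in R2, the heat shock gene Hspa1a, which has a near-identical copy in Hspa1b, 2.22-fold and Actb 2.04-fold. Cox8b, a subunit of cytochrome c oxidase found mainly in heart and muscle, was 2.36-fold higher in R1 (2.25 to 2.46, 8854 UMIs against 2643), and Rps28 was 2.15-fold higher in R1.

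The list of 7 genes known to respond to cell dissociation summed to 2.19 UMIs per 10000 in R1 and 5.51 in R2. Hspa1a was its most abundant gene, at 1.46 and 3.32, and Fos was at 0.0473 and 0.330. The wider list of 21 immediate early and stress genes summed to 14.7 in R1 and 13.5 in R2, and its most abundant gene, Hspa8, was at 11.4 and 6.43. The part of cell preparation in these differences was not tested.

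Variability between cells was measured beyond what counting alone gives. For each gene, the variance of UMIs over cells was divided by that expected if every cell held the gene at the same share of its own UMIs, so that 1 marks counting noise. The excess coefficient of variation (CV) is the standard deviation of the remaining, relative variation. All 1214 genes with at least 1 UMI per 10000 in both mice had a ratio above 1 in both mice, with medians of 1.85 in R1 and 2.07 in R2. The lowest were those of Gng5, a G protein subunit, in R1 (1.02) and Usp50 in R2 (1.06). The ratio was higher in R2 than in R1 for 71.7% of these genes, and the excess CV was at least 0.5 in both mice for 849 genes.

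The ratio was almost flat across weakly expressed genes. Between 0.1 and 5 UMIs per 10000, its median in successive abundance classes went from 1.57 to 1.84 in R1 and from 1.91 to 2.06 in R2, and above 50 it was 10.0 and 8.64, in classes of 15 and 16 genes. In consequence the excess CV fell as the mean rose (Spearman's rho of -0.79 in R1 and -0.83 in R2 across the 1214 genes, which share the libraries). Some weakly expressed genes had a high count in isolated cells. Of 5599 genes of R1 with a mean of 0.1 to 1 UMI per 10000, 1281 (22.9%) had at least 10 UMIs in some cell, and for 1044 of them this was so in a single cell. In R2 it was 765 of 5412 genes (14.1%), 661 of them in a single cell. Counts of this size in such genes were found in 850 of 1174 members in R1 (72.4%) and 530 of 832 in R2 (63.7%), and their source was not tested.

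**Figure D2:**
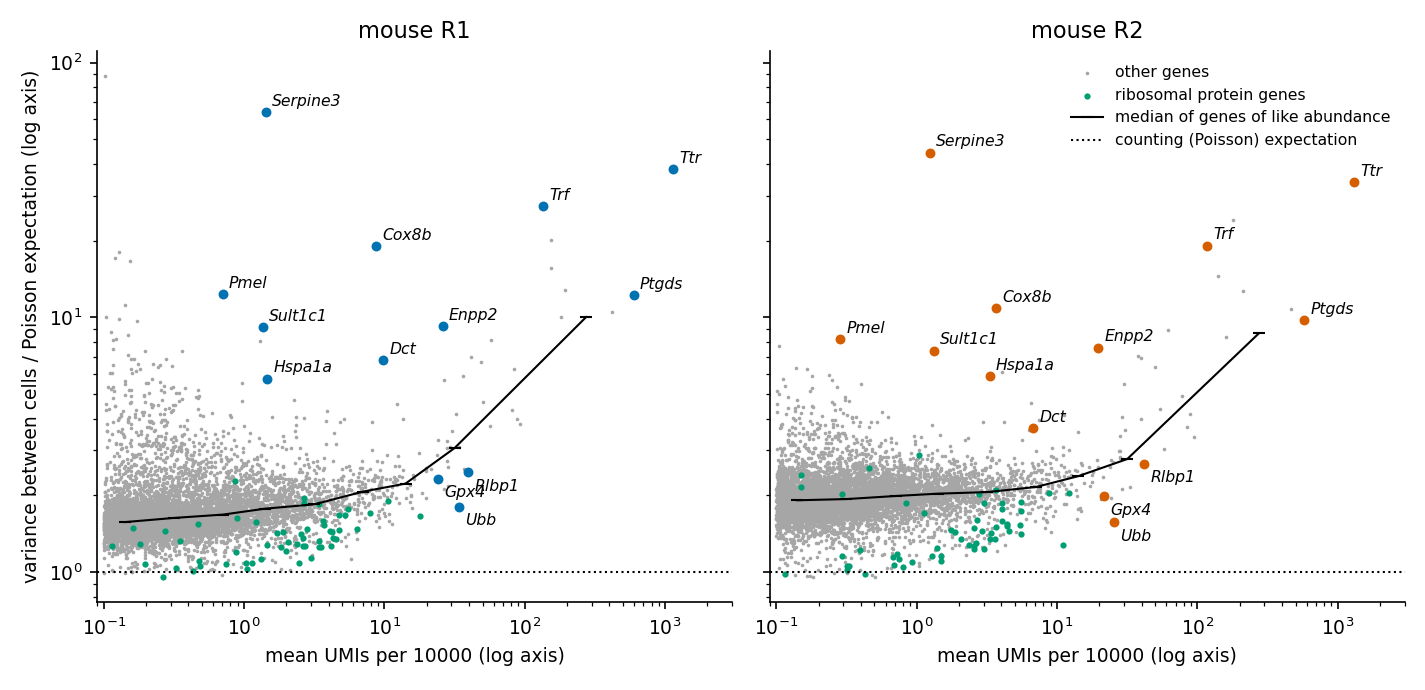
Ratio of the variance between cells to its counting (Poisson) expectation against mean UMIs per 10000, both on log axes, for genes with a mean of at least 0.1 in mouse R1 (left) and R2 (right), with ribosomal protein genes in green, named genes in blue or orange and the median of genes of like abundance as a black line. Serpine3 reaches 64.0 and 44.3, and most ribosomal protein genes lie below the line.

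Among the genes with at least 1 UMI per 10000 in both mice, the pair with the largest excess CV, Serpine3 and Sult1c1, had high counts in few cells. Serpine3, a member of the serine protease inhibitor family (ENSMUSG00000091155, chromosome 14, 62663667 to 62692243), had an excess CV of 6.96 in R1 and 6.38 in R2, and of 4.82 and 2.88 without the 1% of cells with its highest level. It had no UMI in 87.0% of members of R1 and 81.9% of R2, where its mean under counting alone would give 30.4% and 35.5%. At the other end, 33 members of R1 and 17 of R2 had at least 10 UMIs, with up to 168 and 157 in a cell. The 1% of cells with the most Serpine3 held 58.1% and 51.1% of its UMIs.

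Sult1c1, a sulfotransferase (chromosome 17, 53961615 to 53990674), came next among these genes with an excess CV of 2.57 and 2.31. It had no UMI in 73.9% and 71.6% of members and at least 10 UMIs in 47 and 22. Cox8b (chromosome 7, 140898945 to 140900446) had an excess CV of 1.503 and 1.73 and a broader spread, with no UMI in 23.9% and 34.9% of members and at least 10 UMIs in 24.96% and 8.17%.

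Id3, an inhibitor of helix-loop-helix factors (1.34 and 1.53), Ins2, known as an insulin gene (1.30 and 1.39), and Hspa1a (1.90 and 1.26) followed. Over the 20 genes with the largest value in the lower of both mice, the excess CV ranged from 1.10 to 6.96 in R1 and from 1.09 to 6.38 in R2. Beyond the named ones the list held mostly weakly expressed genes, such as Prnp, Pop5, Jkamp and Eny2, in which leaving out the 1% of cells with the highest level lowered the value, for Prnp from 1.25 to 0.682 in R1 and from 1.2002 to 0.989 in R2. That step lowers any gene by construction. Tmsb4x reached 91 UMIs in a cell of R1 against 16 in R2, and its excess CV of 2.48 in R1 became 1.08 without the highest 1%, while it was 1.22 in R2. Without cells with markers of other cell types, the excess CV of Tmsb4x averaged over the mice fell to 0.662 of its value.

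**Figure D3:**
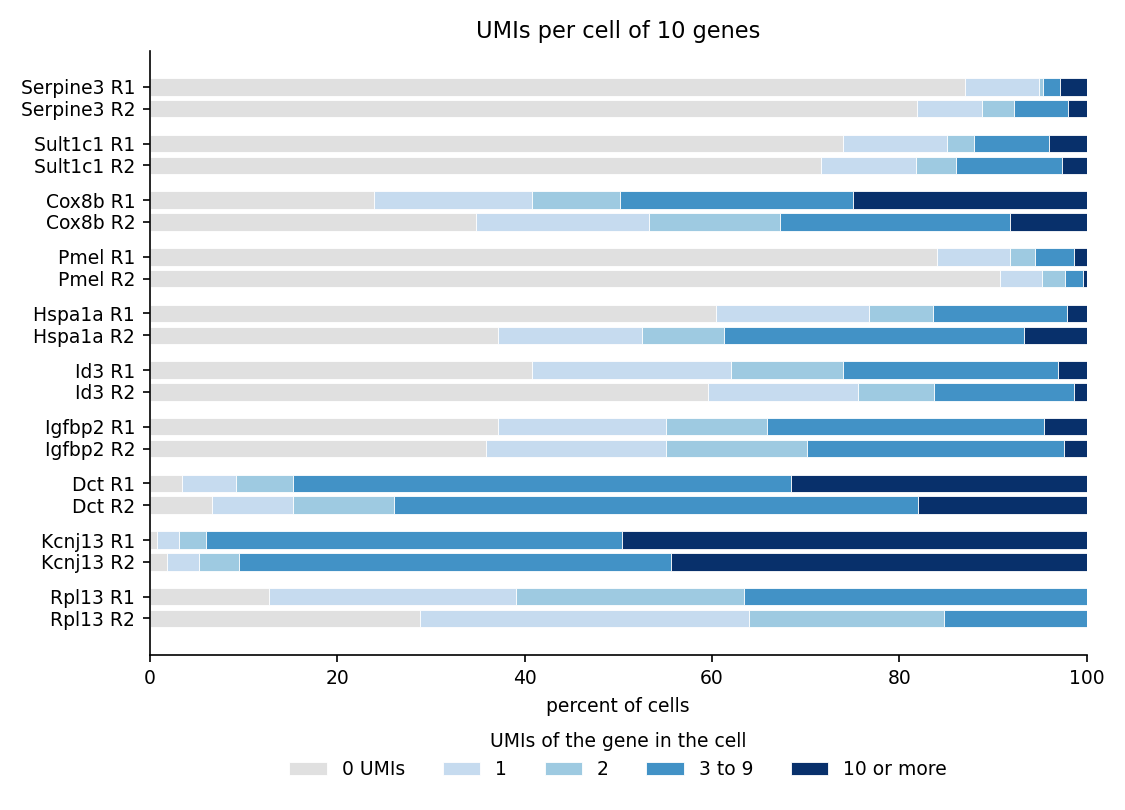
Percent of members (horizontal axis) with 0, 1, 2, 3 to 9 and 10 or more UMIs of 10 genes in mice R1 and R2 (vertical axis), shown as stacked bars from pale to dark. Serpine3 and Sult1c1 are at 0 in most cells and at 10 or more in a few, whereas Rpl13 never reaches 10.

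Because excess CV falls with abundance, each ratio was also divided by the median ratio of genes of like abundance in the same mouse, a step added after the values were seen. Of the 1214 genes, 10 were at least 2 times that median in both mice. These were Serpine3 (36.1 and 21.8 times), Cox8b (9.21 and 5.29), Sult1c1 (5.18 and 3.65), Hspa1a (3.24 and 2.85), Enpp2 (3.02 and 3.19), mt-Nd4 (2.29 and 2.49), Gm42418 (2.13 and 2.95), Trf, Malat1 and Ttr. The last 3 are in the open class above 50 UMIs per 10000, which holds few genes of unlike abundance, so their ratios are not a comparison at like abundance. Ttr, used in the selection, had an excess CV of 0.188 and 0.169, under the median of that class (0.234 and 0.235). Gm42418 overlaps ribosomal RNA sequence, so its counts are uncertain.

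Several groups stood on one side of the median of like abundance. In both mice together, 35.5% of the 1214 genes were above and 35.7% below it, and these are the shares to compare with. The lists were chosen with earlier results of these data known, so the tallies are descriptive and test nothing. Of 12 secreted factor genes that reached 1 UMI per 10000, 10 were above in both mice. Among them were Sostdc1, an antagonist of bone morphogenetic proteins (excess CV 0.625 and 0.669), and the growth factor-binding genes Igfbp2 (1.10 and 1.07) and Igfbp5 (1.17 and 1.30). Cst3, counted above, and Clu, counted below, are in the open class over 50 UMIs per 10000, so they are not compared at like abundance. All 5 melanogenesis genes that reached 1 UMI per 10000 were above, with Dct at 0.797 and 0.671 and Mlana at 1.03 and 1.12. Of 12 visual cycle genes, 4 were above and 7 below. Among 36 ribosomal protein genes, a group added after the values were seen, 33 were below, as in Rpl13 with ratios of 1.08 and 1.11.

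The transcripts with the smallest excess CV were abundant ones, as the fall of this measure with abundance entails. The 10 genes with the smallest excess CV, among those with at least 5 UMIs per 10000 in both mice, included Ptgds, Cst3, Ubb, Bsg, Ttr, Rpl41, Cox8a, Rlbp1 and Rdh5. The selection used Ttr. Ptgds had 0.144 in R1 and 0.131 in R2, and 90% of members lay between 454 and 752 UMIs per 10000 in R1 and between 438 and 704 in R2. Ubb, which encodes polyubiquitin, stood out at a lower level (33.9 and 25.3) with 0.160 in both mice and a ratio of 1.81 and 1.57. Rpe65, also used in the selection, had 0.360 and 0.348.

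Pairs of genes were compared through the correlation of their residuals from the counting expectation across cells. Over 736291 pairs of the 1214 genes, the median r was 0.000942 in R1 and 0.00107 in R2. The widening from the 20 most variable genes to all 1214 was made after the values were seen. In both mice, 20 pairs had an r of at least 0.3 and 5 pairs an r of -0.3 or lower, and none of the 190 pairs of the 20 most variable genes did, the closest being Cox8b and Igfbp5 (0.19 and 0.16). These correlations describe cells of the same library, whose shares of UMIs sum to a fixed total.

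Genes of the mitochondrial genome formed 9 of the 20 pairs, led by mt-Nd4 and mt-Cytb (r = 0.71 in R1 and 0.68 in R2). Rgr ran against them, at -0.41 and -0.47 with mt-Cytb, -0.38 and -0.47 with mt-Nd1 and -0.38 and -0.43 with mt-Nd4. The nuclear RNA Malat1 went with mt-Cytb (0.31 and 0.42) and against Rgr (-0.27 and -0.51), and Gm42418 went against Rgr (-0.32 and -0.34) and Fth1 (-0.32 and -0.33). The part of RNA quality in these relations was not tested. Rgr rose with Bsg (0.41 and 0.34) and Tmem59 (0.36 and 0.35). Among the other pairs were Apoe and Clu at 0.48 and 0.40, Psap and Trf at 0.39 and 0.39, and Psap, the precursor of the saposins, with Slc16a8 at 0.37 and 0.42. Rpe65 and Ttr, both used in the selection, had an r of -0.02 and -0.01.

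**Figure D4:**
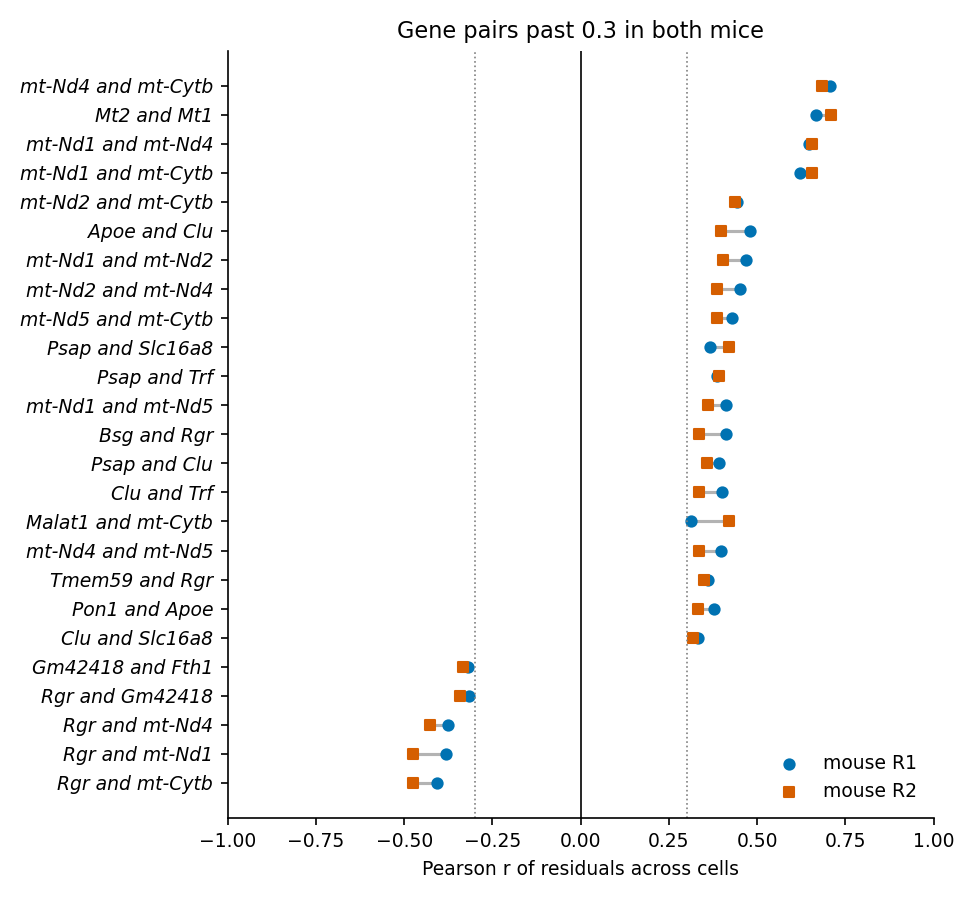
Pearson correlation of residuals across members (horizontal axis) of the 25 gene pairs (vertical axis) that passed 0.3 or -0.3 in both mice, with a blue circle for R1 and an orange square for R2 and dotted lines at the thresholds. The 3 pairs among mt-Nd1, mt-Nd4 and mt-Cytb and the pair Mt1 and Mt2 lie highest, and Rgr with mitochondrial genes lies lowest.

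The strongest pair of nuclear genes was Mt1 and Mt2, with r = 0.67 in R1 and 0.71 in R2, which lie next to each other on chromosome 8 (Mt2 at 94172664 to 94173568 and Mt1 at 94179082 to 94180327, forward strand). Mt3, beside them at 94152607 to 94154146, followed less closely (0.25 and 0.29 with Mt1, and 0.21 and 0.27 with Mt2). Metallothionein genes are known targets of the zinc-sensing factor MTF1, which binds metal response elements. The 250 bases before the RefSeq start of each gene (GRCm38.p6, forward strand, 5′ to 3′) are shown because the pair moved together while Mt3 did so less, with matches to the core letters TGCACNC or TGCGCNC on either strand in capitals.
Mt1, chr8:94178839-94179088: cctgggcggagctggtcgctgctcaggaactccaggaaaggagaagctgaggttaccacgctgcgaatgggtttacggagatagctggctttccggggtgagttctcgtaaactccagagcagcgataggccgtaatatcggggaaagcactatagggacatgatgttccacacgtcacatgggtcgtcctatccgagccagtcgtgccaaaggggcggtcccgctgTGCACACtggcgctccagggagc
Mt2, chr8:94172368-94172617: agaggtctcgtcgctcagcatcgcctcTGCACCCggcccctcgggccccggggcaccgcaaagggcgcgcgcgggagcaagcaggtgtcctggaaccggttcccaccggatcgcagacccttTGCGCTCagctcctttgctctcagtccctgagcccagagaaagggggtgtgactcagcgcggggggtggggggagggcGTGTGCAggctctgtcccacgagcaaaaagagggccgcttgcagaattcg
Mt3, chr8:94152357-94152606: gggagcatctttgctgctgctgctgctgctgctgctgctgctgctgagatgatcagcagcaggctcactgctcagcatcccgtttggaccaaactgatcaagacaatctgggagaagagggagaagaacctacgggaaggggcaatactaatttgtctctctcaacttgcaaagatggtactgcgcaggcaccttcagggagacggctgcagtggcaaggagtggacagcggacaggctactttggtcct
The windows held 1 match for Mt1, 3 for Mt2 and 0 for Mt3. They are not placed alike against the GENCODE starts given above. The Mt1 window ends at 94179088, inside the gene from 94179082, and the Mt2 window at 94172617, short of 94172664. The Mt3 window ends right before its gene. These counts therefore do not compare the promoters, and their part in the correlations was not tested. Of 32851 windows of 250 bases before annotated starts, 21.4% held at least 1, so a match describes the letters and not a bound site.

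Members were compared with mature cells below and above the window, to ask whether the profile depends on depth. UMIs were summed by mouse and depth class, which gave 6 libraries of 3343726 to 17744085 UMIs from 733 to 1174 cells, and tested with edgeR's quasi-likelihood test, in which mouse entered as a block, with p-values adjusted by Benjamini-Hochberg over 11284 genes. Ttr and Rpe65 were left out because the selection used them, whereas the mitochondrial genes, which the selection capped at 5% of UMIs, stayed in. In these sums, fewer cells of a kind and less RNA of a gene per cell cannot be told apart. Against low-depth cells, 0 genes were called higher (0%) and 0 lower (0%) at an adjusted p under 0.05. The smallest adjusted p was 0.451, with 578 genes at an unadjusted p under 0.05, and DESeq2 also called 0 genes and had 152. With only these 2 depth classes in the fit, 12 genes were called, of which 0 were higher in the members. Without a filter on low counts, 33 were called, of which 3 were higher.

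Against high-depth cells, 4 genes were called higher in the members (0.0354% of genes tested) and 0 lower (0%), and all 4 had the same direction in both mice. With only these 2 depth classes in the fit, 251 genes were called, of which 113 (45.0%) were higher in the members. Of the 4 genes called with all classes in the fit, 3 belong to the 13-gene melanogenesis list, Pmel, Trpm1 and Mlana, and the last was Serpine3, of the secreted factor list. Pmel, which builds the fibrils of pigment granules, was at 0.834, 0.654 and 0.161 summed UMIs per 10000 in the low-, mid- and high-depth cells of R1, and at 0.231, 0.279 and 0.118 in R2. Both high-depth libraries were below all other libraries. Its log2 fold change between mid- and high-depth cells was 1.63 (SE 0.212, edgeR adjusted p = 0.0110, higher in 2 of 2 mice).

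Serpine3 was at 2.32, 1.37 and 0.313 in the low-, mid- and high-depth cells of R1, and at 1.53, 1.195 and 0.556 in R2, with a log2 fold change of 1.54 (SE 0.208, edgeR adjusted p = 0.0110). Trpm1, a cation channel of pigment cells, was at 1.17, 0.938 and 0.433 in R1 and at 0.472, 0.569 and 0.311 in R2 (log2 fold change 0.98, SE 0.146, edgeR adjusted p = 0.0237). In Trpm1, too, both high-depth libraries were below all other libraries. Mlana, a membrane protein of early pigment granules, was at 2.50, 2.31 and 1.49 in R1 and at 1.54, 1.74 and 1.15 in R2 (log2 fold change 0.61, SE 0.0961, edgeR adjusted p = 0.0313). Without the mouse as a block, 0 genes were called, with all 4 log2 fold changes still positive, from 0.62 in Mlana to 1.75 in Pmel. DESeq2 called 2 of the 4, and with each gene tested in depth classes set from genes other than itself (odd against even identifiers) 13 genes were called, which included all 4. Without the members and other cells that carried markers of other cell types, Serpine3 was not called, at a log2 fold change of 1.72.

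**Figure D5:**
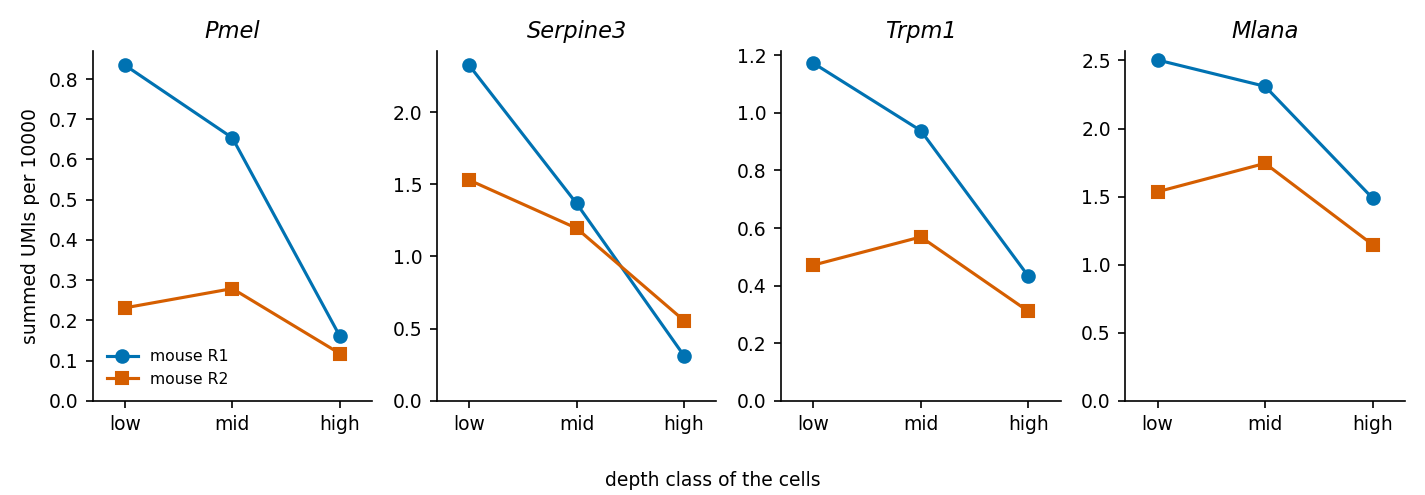
Summed UMIs per 10000 (vertical axes, starting at 0, a scale for each gene) of the 4 called genes in low- (under 6000 UMIs), mid- and high-depth (over 12000 UMIs) mature cells, with blue circles for R1 and orange squares for R2. The high-depth library is the lowest of its mouse in every panel.

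Other melanogenesis genes did not pass the test against high-depth cells. Gpnmb had a log2 fold change of 0.64 (SE 0.118, edgeR adjusted p = 0.0525), Dct of 0.33 (SE 0.0880, edgeR adjusted p = 0.459) and Tyr of 0.07 (SE 0.0857, edgeR adjusted p = 0.988). The list's median was 0.14, beside 0.01 over all genes tested. Visual cycle genes other than the pair left out had a median of -0.04 with 0 of 12 called, and the 75 ribosomal protein genes tested one of -0.03 with 0 called.

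Pmel and Mlana are also markers of choroidal melanocytes. The 6 genes of that list summed to 4.27, 3.70 and 2.32 UMIs per 10000 in the low-, mid- and high-depth cells of R1 and to 2.56, 2.70 and 1.87 in R2, with Mlana as the most abundant. Of its defining markers, Pax3 was at 0 in all 6 libraries and Ednrb had 3 UMIs in the members of R1 and 0 in those of R2, whereas Kit was at 0.133 and 0.0844 and Sox10 at 0.604 and 0.588 UMIs per 10000 in the members. Pmel was concentrated in few members, with at least 10 UMIs in 16 cells of R1 and 3 of R2. Rpe65 and Ttr were required of every member, so their presence says nothing of these cells. In the 16 and 3 cells, picked for their Pmel, Rpe65 was at 34.1 and 51.3 UMIs per 10000. The other members had 48.9 and 50.2. Against these other members, Rgr was at 143 and 109.8 (195 and 214) and Dct at 30.4 and 24.7 (9.36 and 6.66). Of the melanocyte list, Mlana was higher in the picked cells, at 8.39 and 6.76 (2.23 and 1.73). Sox10 was at 0.520 and 0 (0.605 and 0.590) and Kit at 0.0742 and 0 (0.134 and 0.0847). Ednrb and Pax3 had 0 UMIs in the picked cells of both mice. These counts are small, with 7 UMIs of Sox10 and 1 of Kit in R1, and the identity of these cells was not tested.

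Mitochondrial transcripts did not pass the test against either class. The selection had capped them at 5% of UMIs in every class, and low-depth cells reached 4.98% in R1 and 4.93% in R2. The test therefore cannot decide whether they differ with depth. The 13 mitochondrial genes summed to 210, 140 and 101 UMIs per 10000 in the low-, mid- and high-depth cells of R1 and to 157, 154 and 109 in R2. Of the 10 that were tested, 0 were called, with a median log2 fold change of -0.32 against low-depth and 0.39 against high-depth cells. Their part in the other differences by depth was not tested.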

How the data were processed

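Cells of 2 mice were measured by droplet RNA sequencing. The authors made the deposited UMI counts with Cell Ranger 1.2.0 on GRCm38 (bcl2fastq 2.20.0.422 in the submitters' processing notes), as whole numbers per gene and cell for 27998 genes, without normalization. The paper and the labels name different 10x chemistries. The deposited barcodes all have 14 bases, and which chemistry was used is not known. Ambient RNA was left in. Each cell was scaled to 10000 UMIs and levels were averaged over cells. Cells are not replicates, so no test was run on them. Depth classes were compared with edgeR 4.0.16 (R 4.3.3) on summed counts, with filterByExpr, TMM scaling and the mouse as a block, at a false discovery rate of 0.05. The sums share their mouse, which pairs them. DESeq2 1.42.0 was an alternative. Other steps used Python 3.11.15 and scipy 1.17.1. The scripts were tested on simulated data.

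Genes were named as the 25 most abundant, the 20 with the largest and 10 with the smallest excess CV (means of at least 1 and 5 UMIs per 10000 in both mice), members of 27 gene lists (286 entries), the 5 largest called changes in each direction by depth and the 5 largest ratios between the mice in each direction. Bhlhe41, Jun, Hspa1a, Actb, Abhd2, Cox8b, Rps28, Bloc1s1 and Igfbp5 were among those that met the last rule. Some genes that met a rule are not reported here. Gng5, Usp50, Gm42418, Rpl13, Tmem59 and Psap were named after their values were seen. The members and lists were chosen with earlier results of these data known. Coordinates are those of GENCODE M21 (GRCm38), and upstream sequences those of RefSeq. Alternatives changed the UMI window, the denominator, filters, thinning to 6000 UMIs, cells with other markers or a high doublet score, the scaling and the tool. No doublet caller entered the main setting.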

Additional observations from a re-analysis of the deposited data

How the results depend on the processing

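Of the descriptive counts, lowering the filter to 0.5 UMIs per 10000 raised the genes kept from 1214 to 2271 and those with an excess CV of at least 0.5 from 849 to 1890. Leaving Ttr out of the denominator lowered the share of the 10 leading genes from 32.4% to 24.02%. Single mice gave 1264 to 1290 genes, 31.5% to 33.4% and 931 to 991 genes. All other alternatives tried kept the counts within 1.5 times, the lowest being 632 genes without the top 1% of cells per gene. Among named genes, the excess CV of Tmsb4x, averaged over the mice, went from 1.85 to 1.23 without cells with other cell type markers and to 1.22 under a stricter selection. Without the top 1% of cells, that of Serpine3, Tmsb4x, Bola1, Smim7, 1110004E09Rik and Tmem33 fell by more than 1.5 times. Against low-depth cells, 33 genes were called without a filter, 12 with only the 2 classes compared, and 1 each with classes set from genes of the other identifier parity and from UMIs without Ttr. Against high-depth cells, 2 genes were called by DESeq2, 0 without the replicate block, 53 without a filter, 13 and 10 with these same changes of class, and 251 (45.0% of them higher in the members) with only the 2 classes compared, and the cause was not tested. Without cells with markers of other types, 3 genes were called, and Serpine3 was not, at a log2 fold change of 1.72. A single mouse leaves no residual degrees of freedom, and its log2 fold changes for the 4 genes, from 0.60 to 2.13, have no test. With 2 mice and medium depth, changes in weakly expressed genes are poorly resolved, and levels of genes with near-identical copies are uncertain.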
